A study of Mus musculus with 3 samples.

Results

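The genes that carry zinc across membranes and hold it inside cells were examined in blastocysts of the diabetes-prone NOD strain and of C57BL/6 (B6), the diabetes-resistant strain it was compared with. They are 10 of the 24063 genes in the count table, namely the zinc importers Slc39a1, Slc39a2, Slc39a4, Slc39a7, Slc39a8 and Slc39a10, the exporter Slc30a1, the metallothioneins Mt1 and Mt2 and the transcription factor gene Mtf1. Members were chosen by gene symbol, and the set was drawn up because Slc39a2 had 0 counts in the B6 library and many in both NOD libraries. Since measured values of this same comparison entered the choice, the levels and fold changes of these 10 genes are given as a description, with no p-value. All 10 symbols were found in the table, and 9 passed the filter on low counts.

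Zinc enters the cytosol through the ZIP proteins, which the Slc39a genes encode, and leaves it through the ZnT proteins of the Slc30a genes, either out of the cell or into vesicles and the secretory pathway. Metallothioneins are small cysteine-rich proteins that bind zinc and copper in the cytosol. MTF1 senses free zinc, binds metal response elements and switches on Mt1, Mt2 and Slc30a1, so that transcripts of these genes are a common readout of the zinc that a cell holds. Zinc has a known place in early development, as the mouse egg takes up zinc while it matures and expels some of it at fertilization.

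The data were 3 low-input RNA-Seq libraries, 1 from B6 and 2 from NOD, all untreated embryos at the blastocyst stage. The labels describe whole blastocysts, whereas the methods of the study describe single inner cell masses isolated by immunosurgery, and values are therefore given for blastocysts without assigning them to a cell type. Neither source says whether the NOD embryos came from different litters, and neither gives the hour of development, so that a p-value measures only the spread between these libraries. B6 had no replicate and was taken to vary as much as NOD.

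Metal response elements are defined by a short core, TGCACNC or TGCGCNC, which was searched on both strands in the 250 bases before each RefSeq start site (GRCm38.p6). Promoter sequence was found for every member except Slc39a4. The promoters of both metallothioneins and of Slc30a1, the classical MTF1 targets, are shown because they hold the core, and that of Slc39a2 because its counts gave rise to the set. Each is written 5′ to 3′ on the gene's own strand and ends at the base before the start site. The capitals mark the core, which reads as GNGTGCA or GNGCGCA where it lies on the other strand. The windows are chr8:94178839-94179088 for Mt1, chr8:94172368-94172617 for Mt2, chr1:191906531-191906780 for Slc30a1 and chr14:51893360-51893609 for Slc39a2, all on the plus strand.
Mt1: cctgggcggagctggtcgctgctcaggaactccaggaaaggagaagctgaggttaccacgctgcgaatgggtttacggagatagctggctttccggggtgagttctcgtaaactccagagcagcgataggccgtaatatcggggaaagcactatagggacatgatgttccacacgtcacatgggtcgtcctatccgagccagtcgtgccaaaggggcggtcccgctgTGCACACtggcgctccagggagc
Mt2: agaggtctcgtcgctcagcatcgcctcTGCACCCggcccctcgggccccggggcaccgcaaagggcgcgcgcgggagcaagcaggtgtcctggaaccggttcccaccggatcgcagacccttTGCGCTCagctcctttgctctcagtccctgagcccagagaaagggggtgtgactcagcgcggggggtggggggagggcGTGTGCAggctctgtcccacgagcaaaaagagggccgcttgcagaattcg
Slc30a1: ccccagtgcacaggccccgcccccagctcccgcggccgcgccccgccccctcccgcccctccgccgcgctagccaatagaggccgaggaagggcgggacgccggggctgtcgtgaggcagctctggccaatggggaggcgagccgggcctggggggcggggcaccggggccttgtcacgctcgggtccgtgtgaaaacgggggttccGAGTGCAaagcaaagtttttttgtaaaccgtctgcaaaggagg
Slc39a2: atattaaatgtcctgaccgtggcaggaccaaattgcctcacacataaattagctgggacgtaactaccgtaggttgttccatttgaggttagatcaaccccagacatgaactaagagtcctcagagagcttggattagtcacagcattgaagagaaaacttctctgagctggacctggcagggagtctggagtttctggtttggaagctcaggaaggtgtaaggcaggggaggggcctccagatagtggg

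The Mt2 window held 3 matches, which began at -223, -128 and -50 relative to the start site, and the Mt1 window held 1, at -23. Slc30a1 also held 1 match, at -43. No match overlapped another in these windows. Slc39a2 held none, and neither did the windows of Slc39a1, Slc39a7, Slc39a10 and Mtf1, whereas Slc39a8 has a pair of annotated starts of which 1 held a match. Of all 32851 promoter windows of the same length, 21.4% held at least 1 match and 1.26% held at least 3, so that a single match is common and says little by itself. GENCODE M21 also places starts 122 and 152 bases downstream of the listed one for Mt1, and 46 and 242 bases downstream for Mt2. With the first 50 bases after the listed start included, Mt1 held 3 matches, Mt2 4 and Slc30a1 2, where 7.11% of all windows of that length held at least 2 and 1.97% at least 3. A match is a run of letters and not a binding site, and MTF1 binding was not measured.

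Counts on genes summed to 12505685 in B6 and were 2.71 and 2.89 times as many in NOD 1 and NOD 2. Values are given as CPM, counts relative to library size after scaling by TMM factors, on which a count of 0 in B6 allows up to 0.220 CPM (3 counts, counting error only). Levels of different genes are compared only as FPKM, which divides counts by the listed transcript length and by the library total. Where a pair of NOD values is given, NOD 1 comes first. The 7 trophectoderm markers had a summed level of 2901 CPM in B6 against 1649 and 1527 in NOD. All 6 trophectoderm markers that could be tested were lower in both NOD libraries than in B6, as were 39.4% of all genes tested. None of the 6 passed edgeR's threshold, with 4 at an unadjusted p under 0.05 and 2 called by DESeq2. Among all genes tested by edgeR, 39.9% had an unadjusted p under 0.05 and 17.7% were called in either direction, and DESeq2 called 29.4% of them. The remaining one, Elf5, had 0 CPM in B6 against 0.212 and 0.294 in NOD. Markers of the inner cell mass summed to 330 CPM in B6 against 444 and 631 in NOD, with 4 of 6 above B6 in both NOD libraries, 2 below, 1 called up and 1 called down. Markers of the primitive endoderm summed to 391, 118 and 158 CPM, most of it Gata6, which had 385.1 CPM in B6 against 91.5 and 129.9 in NOD and was called down. Of the other primitive endoderm markers, Pdgfra was called up, from 5.50 to 23.6 and 24.6 CPM, Gata4 had 0.514, 3.03 and 3.53 CPM without a call, and Sox17 was at 0 in B6 and NOD 1, so that these 4 genes did not move together. All these markers were chosen with earlier results of these data known, so that no lineage difference is concluded from them. Levels of several lineage markers differed between the B6 and NOD libraries, and the part of cell composition in the values below was not tested. A smaller share of a cell type and less transcript per cell cannot be told apart in such libraries. Leukocyte markers summed to at most 1.03 CPM and erythroid markers to at most 1.70 CPM, with the leukocyte gene Ptprc at 0 everywhere. Markers of cumulus and granulosa cells summed to 5.58 CPM in B6 against 8.93 and 19.9 in NOD, mostly from Amhr2. Those of oviduct and uterine epithelium summed to 0.587 CPM in B6 against 8.56 and 4.50 in NOD, mostly from Muc1.

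Between NOD and B6, 2 of the 9 members that were tested passed the threshold upwards (Slc39a2 and Slc39a10) and 1 downwards (Slc39a4), where a call by edgeR's quasi-likelihood test needed 2-fold or more and an adjusted p of less than 0.05. Among all 14456 genes tested, 10.3% passed upwards and 7.39% downwards. Both NOD libraries were above B6 for 3 members and below it for 6, against 45.3% and 39.4% of all genes tested. The median log2 fold change was -0.80 over the 9 members and 0.26 over all genes. Because the members were chosen from this comparison, nothing is read from these counts. Without the filter on low counts and with limma-voom 0 members were called, and with upper-quartile factors Slc39a4 was not called either.

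**Figure D1:**
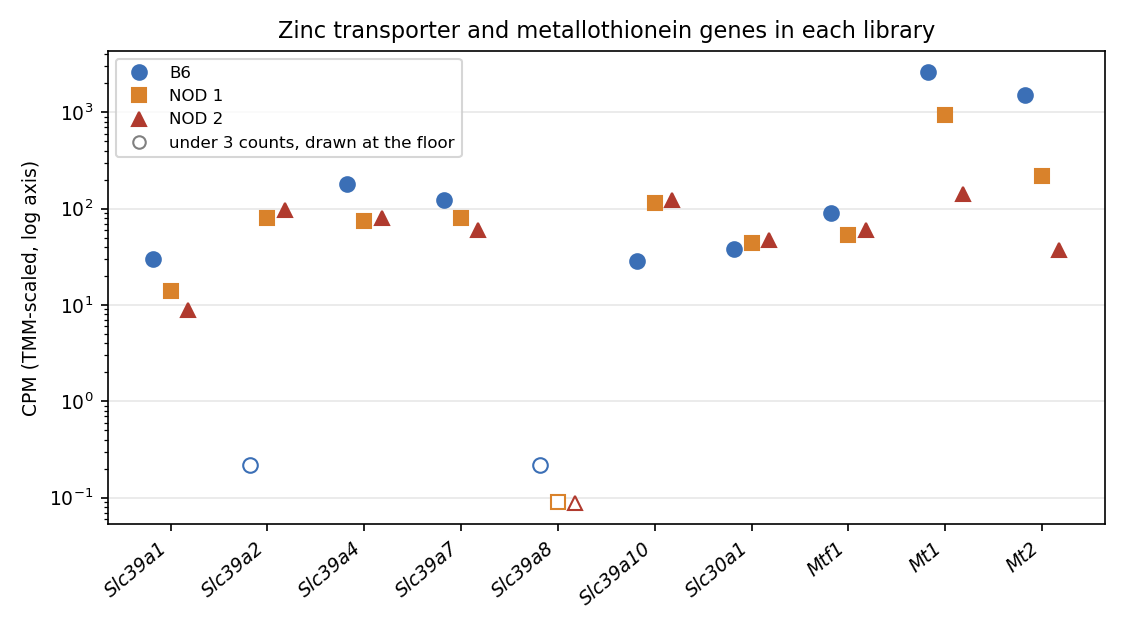
Level of each of the 10 genes in the B6, NOD 1 and NOD 2 libraries, in TMM-scaled CPM on a log axis, with 1 symbol per library. Open symbols stand for fewer than 3 counts and are drawn at the level of 3 counts. Slc39a2 appears in NOD alone, Slc39a10 is higher in both NOD libraries, and the Mt1 and Mt2 symbols are spread far apart, with B6 on top and NOD 2 at the bottom.

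The importer Slc39a2 (NM_001039676, chr14:51893610-51896745, plus strand in mm10) encodes ZIP2, a zinc importer of the cell surface. It had 0 counts in B6 against 2650 and 3283 in NOD. On the CPM scale these were 0 in B6 against 80.2 and 96.5 in NOD, a NOD mean of 88.3 ± 11.5 CPM (SD, n = 2). The NOD mean was at least 401-fold above the level that 3 counts would give in B6. In NOD its level per length was 33.6 and 39.0 FPKM, so that it ranked 2903rd and 2636th of all genes. Of the 50-base words in its transcripts, 2.96% also occur in those of the neighbouring gene Mettl17, and none in another gene. GENCODE places a further start of Slc39a2 at -721 relative to the listed one.

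B6 lacked counts on 10268 genes, of which 1452 had at least 1 count in both NOD libraries. The levels of Slc39a2 gave rise to the set, so that a high rank was fixed by the choice. Ranked by the lower of its NOD levels, Slc39a2 stood second among these 1452 genes. The 5 genes at 0 in B6 whose log2 CPM values in the NOD libraries lay nearest to it were H2-DMb1, Fbln5, Snx7, Cthrc1 and Lurap1l. H2-DMb1, which encodes a chain of the chaperone that loads peptides onto MHC class II, had 64.7 CPM in NOD 1 and 87.5 in NOD 2. Fbln5, which encodes the elastic-fibre protein fibulin-5, had 87.0 and 71.6 CPM. Snx7 had 71.6 and 57.2 CPM, Cthrc1 134.7 and 81.6, and Lurap1l 62.5 and 44.9. Likeness here rests on levels in only 3 libraries.

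The genes around Slc39a2 were examined too. Of 15 genes within 200 kb, 7 had at least 10 counts in a library and could be tested, and 0 passed edgeR's threshold, which 17.7% of all genes passed. Of these 7, 5 had an unadjusted p under 0.05 (edgeR), against 39.9% of all genes. DESeq2 called 2 of the 7, against 29.4% of all genes. With so few genes nothing is read from these counts. Their fold changes were negative for 4 genes and positive for 3. Mettl17, which ends 1741 bases before Slc39a2 begins, had 41.4 CPM in B6 against 29.0 and 28.0 in NOD, with an adjusted p of 0.312 (edgeR). Ndrg2, the next gene downstream at 8525 bases, had 2 counts in B6 against 59 and 130 in NOD. Its NOD level was 19.2 times that of B6 (95% interval of counting error 5.24 to 160), and its adjusted p was 0.108 (edgeR). Farther away, Arhgef40, Zfp219 and Tmem253 had 13.1, 16.9 and 12.3 CPM in B6 and between 1.26 and 3.91 CPM in NOD. The span of Zfp219 overlaps those of Arhgef40 and Tmem253 on the other strand. Since counting ignored strand, these genes may share reads and are not independent of each other. Hnrnpc, which encodes an RNA-binding protein of the nucleus, had 336.6 CPM in B6 against 540.9 and 685.7 in NOD, with an adjusted p of 0.0751 (edgeR). AY358078 stayed between 0.734 and 2.03 CPM in the 3 libraries.

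**Figure D2:**
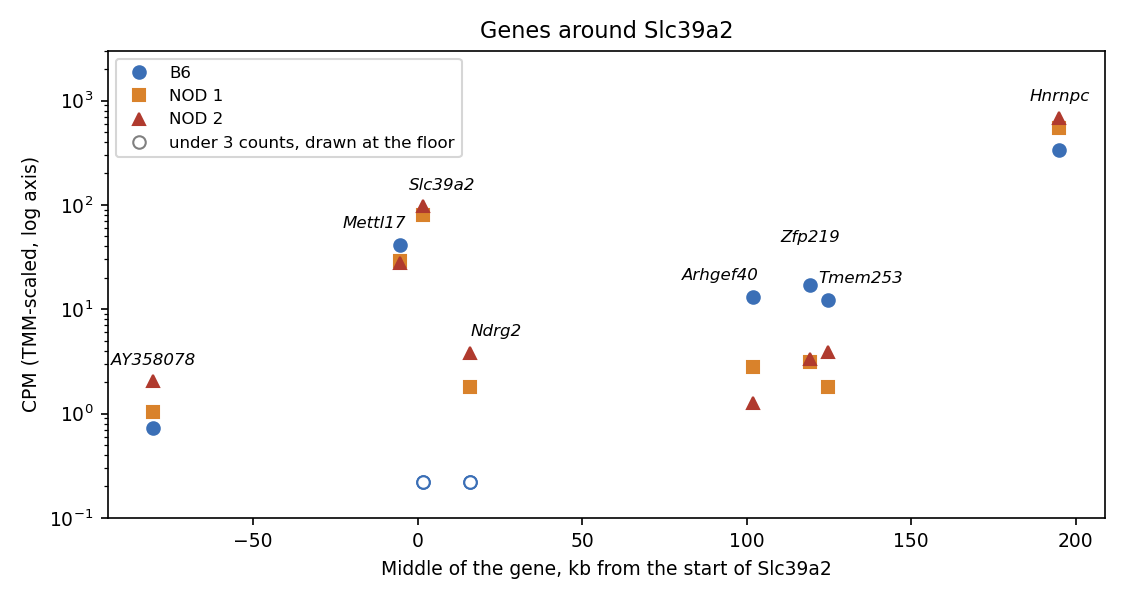
Level of Slc39a2 and of the 7 tested genes within 200 kb of it, in TMM-scaled CPM on a log axis, against the distance of each gene's middle from the start of Slc39a2 in kb, with 1 symbol per library. Slc39a2 is the gene with 0 counts in B6 (open symbol at the level of 3 counts) and about 80 to 96 CPM in NOD, whereas the adjacent Mettl17 lies slightly lower in NOD than in B6.

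Slc39a10 (NM_172653, chr1:46807544-46853509, minus strand) encodes ZIP10, a surface importer that pairs with ZIP6. It had 389 counts in B6 against 3812 and 4182 in NOD, or 28.5, 115.3 and 122.9 CPM. Both NOD libraries were well above B6 and close to each other, with a mean of 119.1 ± 5.35 CPM (SD, n = 2). The log2 fold change was 2.06 with a standard error of 0.32, a ratio of 4.17.

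Slc39a4 (NM_028064, chr15:76612383-76616852, minus strand) encodes ZIP4, the importer that takes up dietary zinc in the gut. Its level was 179.2 CPM in B6 against 74.7 and 79.5 in NOD, a NOD mean of 77.1 ± 3.43 CPM (SD, n = 2). Both NOD libraries lay below B6, by a log2 fold change of -1.22 with a standard error of 0.26. In B6 it was the importer with the most transcript per length, at 88.3 FPKM, and it had 32.9 and 33.8 FPKM in NOD.

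Slc39a7 (NM_008202, chr17:34028266-34031690, minus strand) encodes ZIP7, which releases zinc from the endoplasmic reticulum, and lies within the mouse major histocompatibility complex. It had 121.9 CPM in B6 against 79.5 and 60.3 in NOD. NOD was lower in both libraries, with a log2 fold change of -0.80 and a standard error of 0.32, and the gene did not pass the threshold. Of the 50-base words of Slc39a7, 74.5% also occur in Gm20427, a GENCODE gene model on the same strand that overlaps it and is not a gene of the count table.

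Slc39a1 (NM_013901, chr3:90248192-90253612, plus strand) encodes ZIP1, a widely used importer of the cell surface. It had 30.3 CPM in B6 against 14.1 and 8.87 in NOD, a log2 fold change of -1.40 with a standard error of 0.49, and did not pass the threshold. A processed pseudogene, Slc39a1-ps, shares 21.8% of the 50-base words of Slc39a1, which makes its count less certain. Slc39a8 (NM_026228, chr3), which encodes the zinc and manganese importer ZIP8, had 0 counts in B6 against 0 and 1 in NOD. At this depth it was not detectable above the level of 3 counts in any library, and no fold is given.

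The exporter Slc30a1 (NM_009579, chr1:191906781-191913247, plus strand) encodes ZnT1, which moves zinc out of the cell across the plasma membrane. It had 525 counts in B6 against 1446 and 1599 in NOD, or 38.5, 43.7 and 47.0 CPM. Slc30a1 was thus nearly level across the libraries, and its log2 fold change of 0.24 was smaller than its standard error of 0.36. An antisense gene, 1700034H15Rik, overlaps the start of Slc30a1 and had 77 counts in B6 against 127 and 185 in NOD. Reads of the pair cannot be told apart where they overlap, since both strands were counted together.

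**Figure D3:**
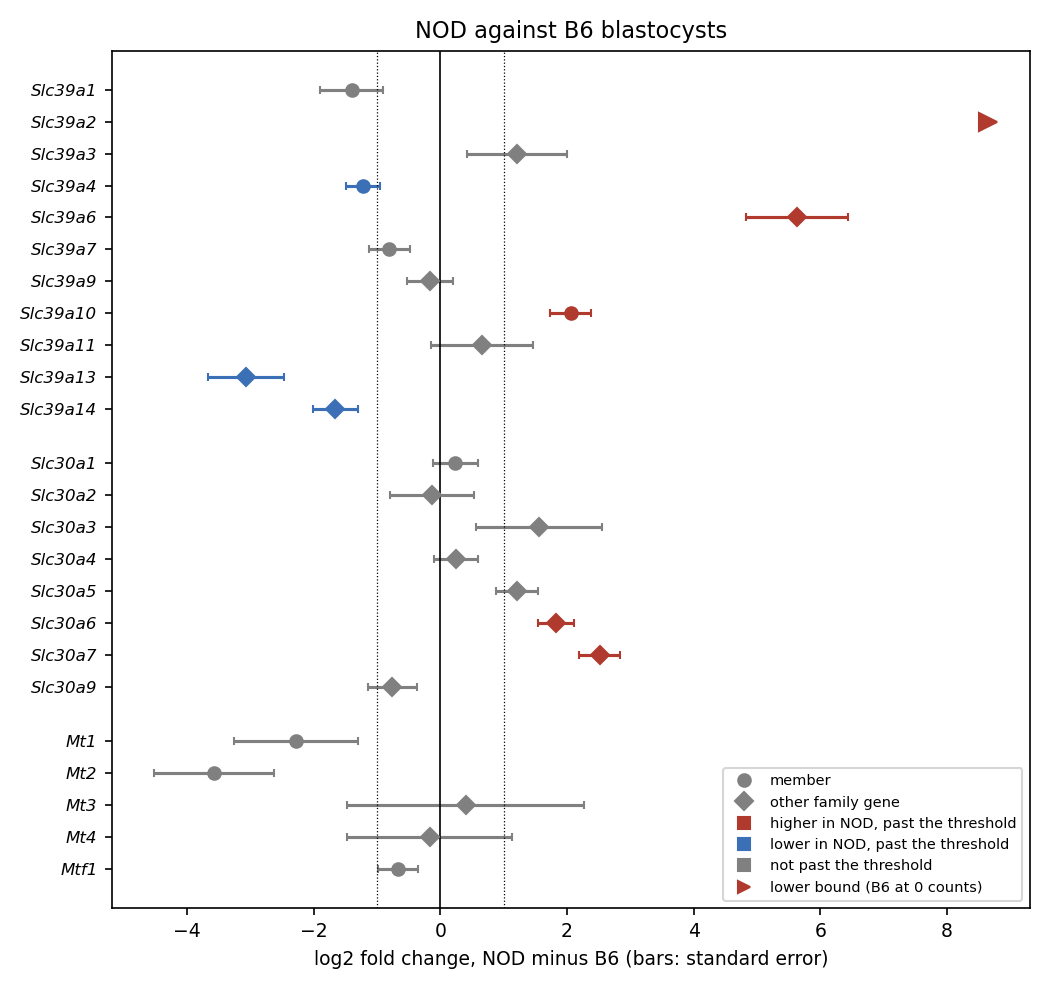
Log2 fold change of NOD minus B6 for the 9 tested members (circles) and the other tested genes of the same families (diamonds). Bars are standard errors derived from edgeR's fold change and F statistic. Red or blue marks a gene that passed the threshold. The triangle is the lower bound for Slc39a2, whose B6 count was 0. Dotted lines mark a 2-fold change. Slc30a10, also at 0 in B6, is not drawn. Slc39a6, Slc39a10, Slc30a6 and Slc30a7 lie to the right in red, and Slc39a4, Slc39a13 and Slc39a14 to the left in blue.

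Mt1 and Mt2 were the most abundant of these transcripts and differed most between the NOD libraries. Mt1 (NM_013602, chr8:94179089-94180327, plus strand) had 35537 counts in B6 against 30810 and 4839 in NOD. That was 2608 CPM in B6 against 932.1 and 142.2 in NOD, so that the libraries ran in steps, with B6 at 2.80 times NOD 1 and 18.3 times NOD 2. Mt2 (NM_008630, chr8:94172618-94173567, plus strand) had 20611, 7188 and 1261 counts, or 1512 CPM in B6 against 217.5 and 37.1 in NOD. B6 exceeded NOD 1 by 6.95 times and NOD 2 by 40.8 times for Mt2.

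Neither metallothionein passed the threshold, although Mt2 was called down when the dispersion was estimated within glmQLFit, and NOD 1 exceeded NOD 2 by 6.56 times for Mt1 and 5.87 times for Mt2. The log2 fold change was -2.28 with a standard error of 0.98 for Mt1 and -3.57 with a standard error of 0.95 for Mt2. The NOD mean was 537.1 ± 558.5 CPM for Mt1 and 127.3 ± 127.6 CPM for Mt2 (SD, n = 2), and the SD was as large as the mean for both. Without NOD 1 the Mt1 log2 fold change was -4.20, and without NOD 2 it was -1.48. For Mt2 the values were -5.35 and -2.80. NOD was lower in each case, and the size of the difference rested on the library that was kept.

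By level per length, Mt1 ranked second of all genes in B6, 19th in NOD 1 and 563rd in NOD 2, and Mt2 ranked 12th, 312th and 1920th. Together they took 0.449% of all counts in B6 against 0.112% and 0.0169% in NOD. The ratio of Mt1 to Mt2 was 1.77 in B6 against 4.40 and 3.94 in NOD as FPKM. The NOD libraries therefore differed in the amount of metallothionein transcript and much less in the balance of both genes, whereas B6 held relatively more Mt2. Reads of Mt2 are less certain, as 45.8% of its 50-base words also occur in Gm45774 on the opposite strand, while Mt1 shares none with another gene.

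The difference between NOD 1 and NOD 2 was set beside that of 8111 tested genes with a NOD mean of at least 10 CPM, whose median absolute log2 difference was 0.31. Mt1 differed by 2.71 on the log2 scale, a size reached by 28 of these genes (0.345%, Mt1 included). Mt2 differed by 2.55, and 35 genes reached that size (0.432%). The member transporters at that level did not vary in this way. Their log2 difference of NOD 1 over NOD 2 was 0.66 for Slc39a1, 0.40 for Slc39a7, -0.27 for Slc39a2, -0.10 for Slc30a1 and -0.09 for both Slc39a4 and Slc39a10. Slc30a10, a transporter outside the members and under that level, had 0.182 and 1.65 CPM. Mtf1 differed by -0.18. Between the NOD libraries, then, Mt1 and Mt2 differed several-fold while the exporter Slc30a1 and the sensor gene Mtf1 were nearly level. The 9 tested genes of metal and oxidant stress differed between the NOD libraries in both directions, from Nqo1, a quinone reductase, with 1.33 CPM in NOD 1 and 12.3 in NOD 2, to the heat shock gene Hspa1b with 3.09 and 1.82 CPM.

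**Figure D4:**
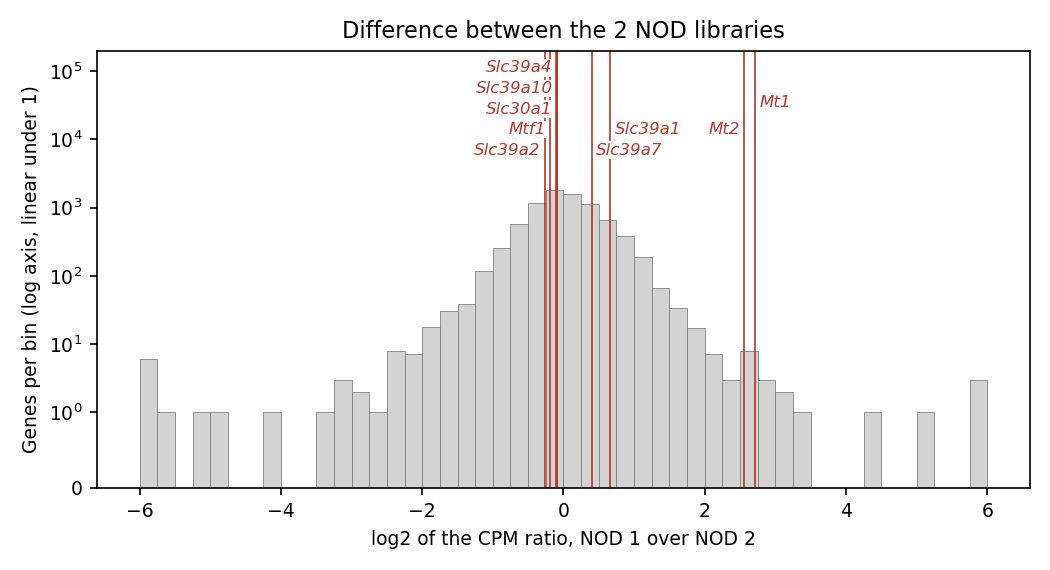
Histogram of the log2 ratio of CPM in NOD 1 over NOD 2 for the 8111 tested genes with a NOD mean of at least 10 CPM, with the number of genes per bin on a log axis and ratios beyond the ends put in the end bins. Red lines mark the members. Mt1 at 2.71 and Mt2 at 2.55 lie in the tail, and the other members lie between -0.27 and 0.66.

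Mtf1 (NM_008636, chr4:124802549-124849800, plus strand), the gene of the zinc sensor, had 1234 counts in B6 against 1765 and 2065 in NOD. On the CPM scale these were 90.5, 53.4 and 60.7, both NOD libraries below B6. The log2 fold change was -0.67 with a standard error of 0.32, and the gene did not pass the threshold. Its last exon overlaps 1110065P20Rik on the other strand, which had 541, 625 and 606 counts.

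The other 19 genes of the Slc39, Slc30 and Mt families are those left once the members had been taken out, and 16 of them could be tested, with adjusted p-values from edgeR over all genes. In NOD, 3 rose, 2 fell and 11 did not pass the test, against 10.3% up and 7.39% down among all genes tested. Their median log2 fold change was 0.53, against 0.26 over all genes. Slc39a6, which encodes ZIP6, the partner of ZIP10, had 4 counts in B6 against 439 and 554 in NOD. Slc39a6 rose from 0.293 CPM to a NOD mean of 14.8 ± 2.12 CPM (SD, n = 2), with a 95% counting interval of 19.6 to 185.5 for the ratio and an adjusted p of 0.0243 (edgeR). Both partner genes of this importer pair, Slc39a6 and Slc39a10, were thus higher in both NOD libraries than in B6.

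Slc30a6 and Slc30a7 encode ZnT6 and ZnT7, which load zinc into the early secretory pathway. Slc30a6 rose from 52.2 CPM in B6 to 179.1 and 192.1 CPM in NOD, a log2 fold change of 1.83 with a standard error of 0.28 and an adjusted p of 0.0261 (edgeR). Slc30a7 rose from 25.5 CPM to 136.0 and 156.0 CPM, a log2 fold change of 2.52 with a standard error of 0.33 and an adjusted p of 0.0231 (edgeR). Slc30a5, whose product ZnT5 works as a heterodimer with ZnT6, had 38.7 CPM in B6 against 90.8 and 88.0 in NOD, and its adjusted p of 0.0655 (edgeR) did not pass, although DESeq2 called it at an adjusted p of 0.0124.

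Slc39a13 and Slc39a14 fell in NOD. Slc39a13, which encodes ZIP13 of the secretory pathway, went from 23.6 CPM in B6 to 3.54 and 2.12 CPM, a log2 fold change of -3.06 with a standard error of 0.60 and an adjusted p of 0.0374 (edgeR). Slc39a14, which encodes ZIP14, an importer of zinc, iron and manganese, went from 81.1 CPM to 28.3 and 23.2 CPM, a log2 fold change of -1.66 with a standard error of 0.35 and an adjusted p of 0.0426 (edgeR). Adjusted p-values of the transporters that passed no test were 0.299 for Slc39a3, 0.752 for Slc39a9, 0.563 for Slc39a11, 0.893 for Slc30a2, 0.291 for Slc30a3, 0.621 for Slc30a4, 0.21 for Slc30a9 and 0.175 for Slc30a10 (edgeR). Slc30a10, the manganese exporter, had 0 counts in B6 against 6 and 56 in NOD. All 5 calls among these family genes were lost without the filter on low counts, where the adjusted p (edgeR) was 0.0649 for Slc39a6, Slc30a6 and Slc30a7, 0.0792 for Slc39a13 and 0.08 for Slc39a14. They were also lost with limma-voom, at adjusted p-values from 0.0679 for Slc30a7 to 0.288 for Slc39a6, and the call of Slc39a14 was lost with upper-quartile factors (adjusted p = 0.0524, edgeR).

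The neighbours of Mt1 and Mt2 had few counts. All 4 metallothionein genes lie within 43124 bases of chromosome 8, in the order Mt4, Mt3, Mt2, Mt1, with 5521 bases between Mt2 and Mt1. Mt3, known from brain, had 4 counts in B6 against 15 and 11 in NOD, and Mt4, known from stratified epithelia, had 23, 76 and 24. Neither passed the test, with adjusted p-values of 0.884 for Mt3 and 0.931 for Mt4 (edgeR). Slc39a5 had 2 counts in B6 against 0 and 2 in NOD, and Slc39a12 and Slc30a8, which encodes the zinc transporter of insulin granules, had 0 in every library.

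The summed level was lower in NOD for the Slc39 family and higher for the Slc30 family, while single genes of both families went either way. The 14 Slc39 genes together had 202.6 FPKM in B6 against 146.7 and 142.4 in NOD. The 10 Slc30 genes had 75.6 FPKM in B6 against 150.5 and 155.3 in NOD, and the NOD mean was 2.02 times the B6 value. These sums include the members on which the set was chosen, have a single B6 value and were not tested. The 4 metallothioneins summed to 8288 FPKM in B6 against 2084 and 314.7 in NOD.

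The make-up of the importer pool differed as well. In B6, Slc39a4 supplied 43.6% of the Slc39 FPKM and Slc39a7 27.5%, followed by Slc39a14 at 8.87% and Slc39a1 at 6.97%. In NOD, Slc39a2 came first, with 22.9% in NOD 1 and 27.4% in NOD 2, followed by Slc39a4 with 22.4% and 23.8%, Slc39a7 with 22.2% and 16.7% and Slc39a10 with 15.5% and 16.4%. Slc39a10 had held 3.10% in B6. The first place of Slc39a2 in NOD rests on the values that gave rise to the set. In the Slc30 family, Slc30a6 led in every library, at 34.9% in B6 against 53.9% and 54.0% in NOD, and the share of Slc30a1 was 10.6% in B6 and 5.42% and 5.45% in NOD.

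**Figure D5:**
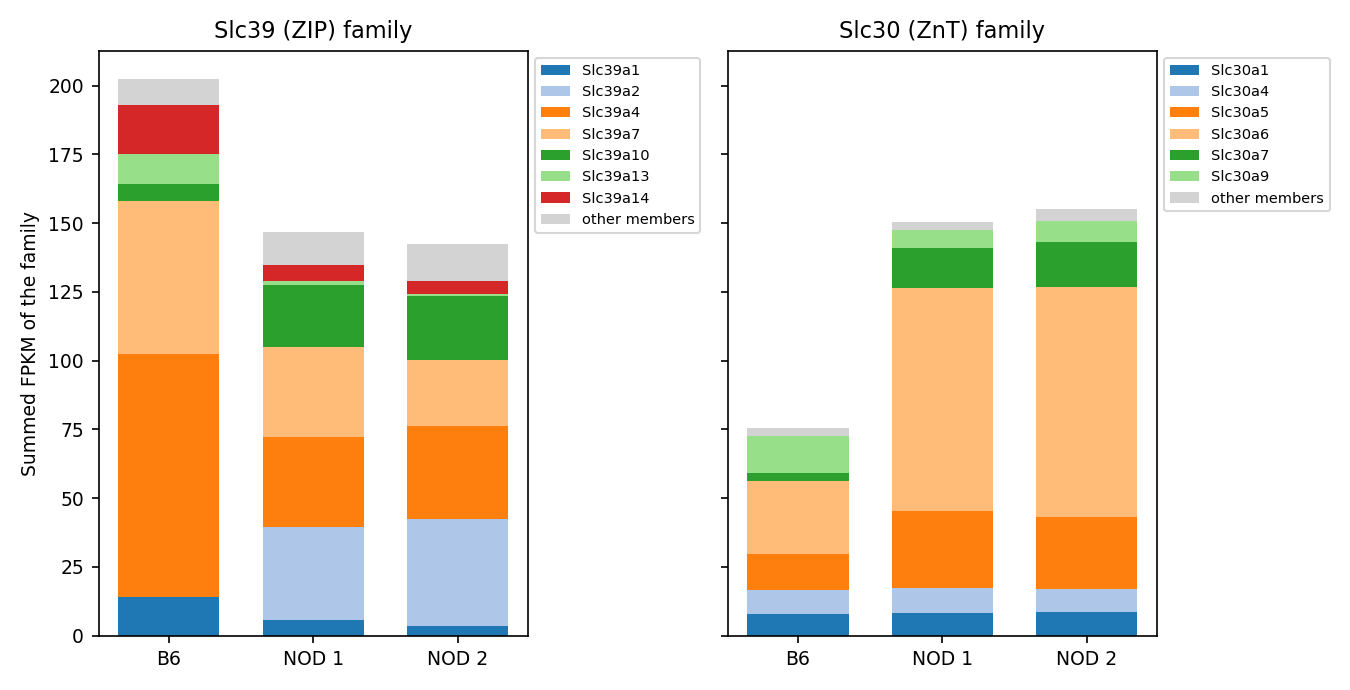
Stacked bars of the summed FPKM of the Slc39 importers (left) and the Slc30 transporters (right) in each library, with the genes that gave the larger shares in colour and the remaining genes of the family in grey. The Slc39 bar falls from 202.6 FPKM in B6 to 146.7 and 142.4 in NOD and gains a Slc39a2 segment, and the Slc30 bar rises from 75.6 to 150.5 and 155.3, mostly through Slc30a6.

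Genes for other metals were examined beside the zinc genes. Of 12 genes of copper and iron handling, 11 were tested, of which 4 rose in NOD by edgeR and 5 by DESeq2, where 10.3% of all genes tested rose by edgeR and 16.4% by DESeq2. The median log2 fold change was 1.44 in this list and 0.26 over all genes. This list and those of the next paragraph were chosen with earlier results of these data known. Their counts, medians and p-values are therefore a description, and no excess is read from them. Slc31a1, the high-affinity copper importer, rose from 38.7 CPM in B6 to 302.0 and 314.6 CPM in NOD (adjusted p = 0.0196, edgeR). Tfrc, the transferrin receptor through which cells take up iron, rose from 16.2 CPM to 366.0 and 308.7 CPM (adjusted p = 0.0190, edgeR). Slc11a2, which carries iron and other divalent metals, rose from 24.5 CPM to 85.9 and 94.1 CPM (adjusted p = 0.0351, edgeR), and Slc31a2, which acts on endosomal copper, from 1.39 CPM to 16.0 and 17.9 CPM (adjusted p = 0.0321, edgeR). Fth1, the ferritin heavy chain that stores iron, had 1468 CPM in B6 against 1539 and 1310 in NOD, with an adjusted p of 0.879 (edgeR). Without the filter on low counts and with limma-voom, 0 of the 11 genes were called, and with the dispersion estimated within glmQLFit 3 were, Slc31a2 being lost.

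Of 6 other genes whose products pass or handle zinc, 5 were tested, and Slc11a2, which is also among the copper and iron genes, was the only one called by edgeR, where 10.3% of all genes were called up and 7.39% down. Trpm2, a cation channel, had 34 counts in B6 against 0 and 0 in NOD, which edgeR did not call (adjusted p = 0.0661) and DESeq2 called down. The median log2 fold change of this list was -0.49, against 0.26 over all genes. None of the 9 tested genes of metal and oxidant stress passed edgeR's threshold, which 17.7% of all genes passed, and 1 was called by DESeq2, which called 29.4% of all genes. Of the 9 tested stress genes, 4 had an unadjusted p under 0.05 (edgeR), against 39.9% of all genes. Their median log2 fold change was 0.22, against 0.26 over all genes.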

How the data were processed

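Values came from 3 mouse libraries, 1 of B6 and 2 of NOD. The authors amplified cDNA with the SMART-Seq V4 kit, aligned single-end reads to mm10 with STAR (2.2.0c in the submitters' processing notes) and counted exon reads with HOMER, keeping 1 RefSeq transcript a gene and ignoring strand. The deposited values are raw counts, without normalization and without molecular identifiers. Every count column in the table was used. The depth of B6 limits precision, and 1 count was 0.0734 CPM there, 0.0303 in NOD 1 and 0.0294 in NOD 2.

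Genes were kept by filterByExpr (minimum count 10), which left 14456, scaled by TMM and tested with edgeR 4.0.16 (quasi-likelihood, trended dispersion) in R 4.3.3, with Benjamini-Hochberg adjustment over these genes. Calls needed 2-fold or more and an adjusted p of less than 0.05. The median biological coefficient of variation was 0.374, with 1 residual and 3.78 prior degrees of freedom. FPKM used the listed transcript length and total counts. Intervals of ratios are exact (Clopper-Pearson, 95%) and, like floors of 3 counts, cover counting error only. Shared 50-base words were counted in GENCODE M21 transcripts, and promoters came from the RefSeq table of GRCm38.p6. Tables and searches used Python 3.11.15, pandas 2.3.3 and numpy 2.4.6.

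The members, gene lists and marker lists were chosen with earlier results of these data known. The genes named are all members, all other Slc39, Slc30 and Mt genes, genes of the related lists past the threshold, genes within 200 kb of Slc39a2 with at least 10 counts in a library and the 5 genes at 0 in B6 nearest to Slc39a2. Fth1, Trpm2, Nqo1, Hspa1b and the marker genes are not covered by it and were picked with their values in view. Alternatives were other size factors, no filter, DESeq2 1.42.0, voom in limma 3.58.1, leaving out each NOD library and, added after the data were seen, the dispersion estimated within glmQLFit and all alternatives for the related lists. Summed marker levels of cumulus and granulosa cells were 5.58 CPM in B6 against 8.93 and 19.9 in NOD. Of these, Amhr2 gave 5.36, 8.44 and 19.75 CPM, while Has2, Fshr, Inha and Cyp19a1 were at 0 everywhere. Markers of oviduct and uterine epithelium summed to 0.587, 8.56 and 4.50 CPM, of which Muc1 gave 0.514, 8.56 and 2.91. Keratinocyte markers summed to 21.8, 18.9 and 18.0 CPM, nearly all Krt10, and hepatocyte markers to 2.71, 0.847 and 0.676.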

Additional observations from a re-analysis of the deposited data

How the results depend on the processing

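The members kept the sign of their fold change in all 81 alternative values, and the other family genes in 142 of 144, with Slc30a2 and Mt4 turning when 1 NOD library was left out. Counts of calls moved more. Without the filter and with limma-voom, 0 genes were called in either direction, members, family genes and related genes included, with 5568 and 3924 genes at an unadjusted p under 0.05 and smallest adjusted p-values of 0.0649 and 0.0501. DESeq2 called 2365 genes up and 1887 down, against 1483 and 1069 with edgeR, and 4 up among the other family genes (Slc30a5 added), 1 down among the zinc-handling genes and 1 among the stress genes. Upper-quartile factors gave 701 down over all genes, 0 down among the members and 1 down among the other family genes. With the dispersion estimated within glmQLFit, 2 members (Slc39a4 and Mt2) and 1 stress gene were called down, and 47.3% of all calls were upward, against 58.1%. Total counts alone gave 2 stress genes down, and 47.8% of calls upward, and shifted log2 fold changes down, from 0.26 to 0.07 in the median gene and from 0.24 to 0.05 for Slc30a1. With effective library sizes in place of totals, FPKM was 81.0 in B6 and 34.9 in NOD for Slc39a4, 51.2 in B6 for Slc39a7, 24.1 in NOD for Slc39a10, 8.68 in NOD for Slc30a1, 4860 in B6 for Mt1, 2740 in B6 for Mt2 and 11.9 in B6 for Mtf1. With 50 bases after the start added, the promoter matches were 2 for Slc30a1, 3 for Mt1 and 4 for Mt2. The causes were not tested. Leaving out a NOD library left no residual degrees of freedom, so that only values were given. No paired analysis was possible because B6 had 1 library and shared no pair of replicate numbers with NOD. The single B6 library limits every comparison, and its depth limits values near 0.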
